A study of Homo sapiens with 6 samples.

Results

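The 10 genes described here encode the sealing proteins of the tight junction and their nearest partners: the claudins CLDN1, CLDN3, CLDN4, CLDN7 and CLDN12, occludin (OCLN), the scaffold TJP1 (also called ZO-1), and the junctional adhesion molecules F11R (JAM-A), JAM2 (JAM-B) and JAM3 (JAM-C). They were taken by symbol from a table of 62700 genes, and all 10 had enough counts to be tested among 24325 genes. The libraries were made from PC3, an established human prostate cancer line. The 3 control libraries came from cells with a control short hairpin RNA (shRNA), which the labels give the genotype WT, and the other 3 from cells with an shRNA against TTC3, given as TTC3 knockdown. TTC3 encodes an E3 ubiquitin ligase. The labels used here do not give the hairpin sequence, how it was delivered, or whether the cells were a pool or 1 clone. They do not say that replicates were grown separately either, so each p-value reflects library-to-library spread that could be technical.

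Tight junctions encircle epithelial cells near the top of their side walls, and they limit what passes between neighbours. Claudins are small membrane proteins that polymerise into strands. Which claudins a cell makes sets how tight the strand is and which ions it lets through. Occludin sits in the same strands, ZO proteins such as TJP1 tie the strands to actin, and JAMs are immunoglobulin-domain adhesion molecules that recruit the polarity complex. Carcinomas often gain or lose particular claudins, and claudins 3 and 4 are the receptors for a bacterial enterotoxin.

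Levels are given as CPM, a gene's count relative to the TMM-scaled library total (TMM scaling assumes that most genes do not change). Libraries held 143246356 to 155526861 counts. TTC3 itself was at 695, 684 and 680 CPM in control replicates 1 to 3 and at 228, 183 and 178 CPM in TTC3 shRNA replicates 1 to 3, 28.6% of the control mean. Of 9 tested epithelial identity genes 2 were higher and 3 lower with TTC3 shRNA: the keratin KRT18 (163 to 236 CPM) and EPCAM (4.42 to 5.50 CPM) rose, and the cadherins CDH1 (1.97 to 0.599 CPM) and CDH3 (3.63 to 1.02 CPM) and the splicing factor ESRP1 (246 to 12 counts over 3 libraries) fell. ESRP1 had enough counts to be tested only through the control libraries. KRT8 was at 165 and 166 CPM and did not pass, and the androgen-driven KLK3 and KLK2 had 0 counts in all 6 libraries. Of the marker lists for other cell types, the endothelial list summed to 59.0 to 60.1 CPM in control and 80.8 to 83.6 CPM in TTC3 shRNA libraries, the fibroblast list to 42.9 to 44.8 and 104.7 to 161 CPM, and the leukocyte list to 1.89 to 2.11 and 0.467 to 0.564 CPM. The endothelial cadherin CDH5 had 0 counts in all 6 libraries, as had the fibroblast gene DPT and the T and B cell genes CD3E, CD3D and MS4A1. Of 10 fibroblast markers 7 were tested: PDGFRA (16.1 to 51.8 CPM) and COL1A1 (19.0 to 75.8 CPM) rose, LUM fell and 4 did not pass. Of 10 leukocyte markers 3 were tested, and all 3 fell. The part of these markers in the results was not tested. Of all tested genes, 33.6% had an adjusted p below 0.05 in the edgeR quasi-likelihood test, of which 15.7% of genes were higher with TTC3 shRNA and 17.8% lower.

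Of the 10 genes, 3 rose (JAM3, CLDN3 and CLDN4), 3 fell (CLDN1, OCLN and F11R) and 4 did not pass (TJP1, CLDN12, CLDN7 and JAM2). Their median log2 fold change was -0.36, beside -0.02 over all tested genes. The 3 control libraries lay on one side of the 3 TTC3 shRNA libraries for 10 of the 10 genes, beside 50.3% of all tested genes. For CLDN7 the nearest libraries of the 2 groups were 0.206 and 0.206 CPM and are equal at this precision. In bulk RNA, fewer cells that express a gene and less RNA per cell cannot be told apart. Of the called genes, CLDN1 and OCLN had an estimated fall of at least 2-fold, where 8.55% of all tested genes were called with such a fall. JAM3 and CLDN3 had an estimated rise of at least 2-fold, where 2.92% were called with such a rise. No test against a 2-fold change was run. Among genes with a mean of at least 10 CPM, 43.8% were called in either direction.

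**Figure D1:**
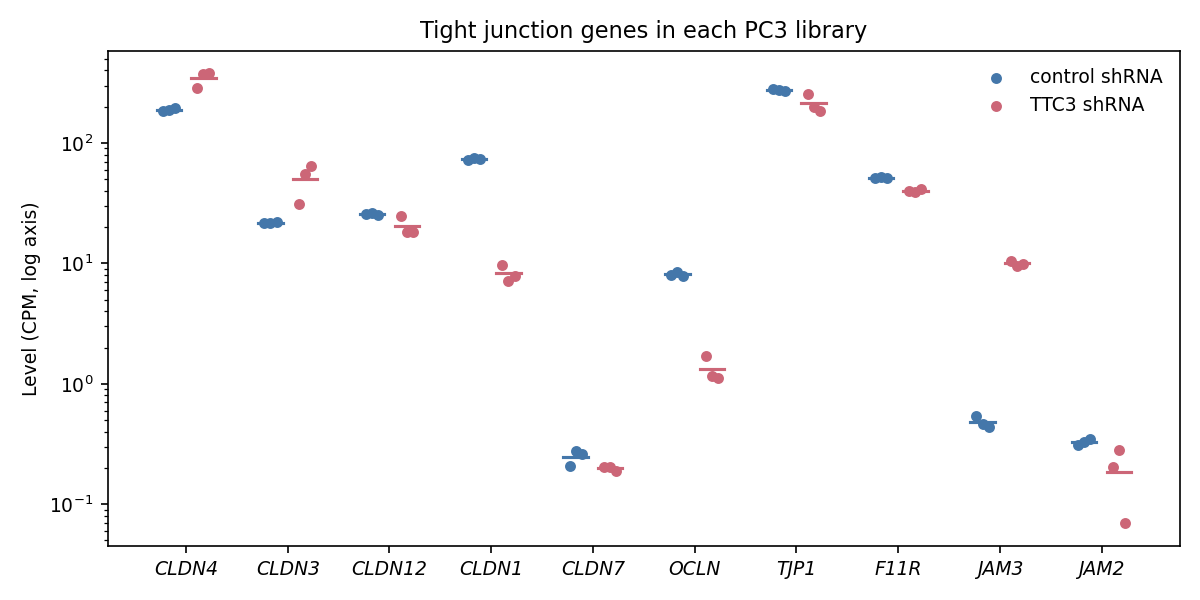
Level of each gene in every library, as CPM on a log axis, with control shRNA libraries in blue and TTC3 shRNA libraries in red; points are libraries and bars are group means (n = 3). CLDN1 and OCLN lie far lower and JAM3 far higher in the red points, while TJP1, F11R and CLDN12 are shifted by under 1 log2 unit.

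CLDN1, the claudin that forms the barrier in skin and many glandular epithelia, had the largest fall of the 10. It was at 72.9, 74.6 and 73.0 CPM in control replicates and at 9.74, 7.18 and 7.81 CPM in TTC3 shRNA replicates. Every TTC3 shRNA library was thus several-fold below every control, and the TTC3 shRNA mean was 11.2% of control. CLDN1 fell by 3.16 ± 0.12 on the log2 scale (SE, adjusted p = 1.07e-05). It has 1 transcript in the deposited table, ENST00000295522.4, which also passed the test across transcripts (log2 fold change -3.18 ± 0.15, adjusted p = 0.00184).

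OCLN, a membrane protein of the strands that also takes part in their regulation, fell as well. Control replicates were at 7.99, 8.52 and 7.87 CPM and TTC3 shRNA replicates at 1.70, 1.16 and 1.11 CPM. The groups did not overlap, and all 3 TTC3 shRNA libraries were low. The fall was 2.62 ± 0.19 on the log2 scale (adjusted p = 0.000137), to 16.3% of control. A partial copy of the gene, the pseudogene OCLNP1, was at 0.654 and 0.120 CPM and fell as well (log2 fold change -2.43 ± 0.25, adjusted p = 0.000678), so reads shared between the 2 make both levels uncertain. None of the 3 OCLN transcripts passed. The shortest, ENST00000396442.7, held 814, 1074 and 684 counts in control replicates and 250, 148 and 0 in TTC3 shRNA replicates, so the division among transcripts varied within a group.

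CLDN4, a claudin known for tightening junctions against sodium in kidney, bladder and gut epithelia, was the most abundant claudin and rose. It was at 184, 189 and 195 CPM in control replicates and at 286, 376 and 379 CPM in TTC3 shRNA replicates. Replicate 1 of the TTC3 shRNA group was nearer to the controls than the other 2, and the groups did not overlap. The rise was 0.88 ± 0.11 on the log2 scale, 1.84-fold (adjusted p = 0.00175). Its main transcript, ENST00000340958.4, held 94.5% of the gene's counts in control and 96.7% in TTC3 shRNA libraries and rose by 0.89 ± 0.12 (adjusted p = 0.0237).

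CLDN3, its neighbour in the genome and a barrier-forming claudin often abundant in carcinomas, moved the same way. Control replicates were at 21.8, 21.6 and 22.02 CPM, and TTC3 shRNA replicates at 31.0, 55.2 and 64.2 CPM. The TTC3 shRNA libraries were all higher but spread widely, with replicate 1 lowest. CLDN3 rose by 1.20 ± 0.24 on the log2 scale, 2.30-fold (adjusted p = 0.00946). CLDN3 and CLDN4 did not pass a stricter test against a fold of 1.5 (glmTreat adjusted p = 0.0712 and 0.0548).

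Both genes were least raised in the TTC3 shRNA replicate with the weakest length trend. Each doubling of transcript length, over 10783 protein-coding genes, went with a log2 difference from control of -0.03, -0.17 and -0.21 in TTC3 shRNA replicates 1, 2 and 3 and of -0.004 to 0.006 in controls. CLDN3 and CLDN4 have short transcripts, 1274 bases and on average 1931 bases. With the length trend removed CLDN3 rose by 0.90 (adjusted p = 0.00880) and CLDN4 by 0.71 (adjusted p = 0.000987) on the log2 scale. Those rises still passed, and the fall of CLDN1 was 3.17 on the same scale. Mitochondrially encoded genes took 5.29% to 5.53% of counts in control replicates and 6.29%, 3.73% and 3.54% in TTC3 shRNA replicates 1, 2 and 3. The small RNAs 7SL and 7SK took 5.80% to 6.38% in controls and 5.00%, 8.77% and 10.6% in those replicates, highest where CLDN3 was highest. Whether either share bears on the rises was not tested.

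**Figure D2:**
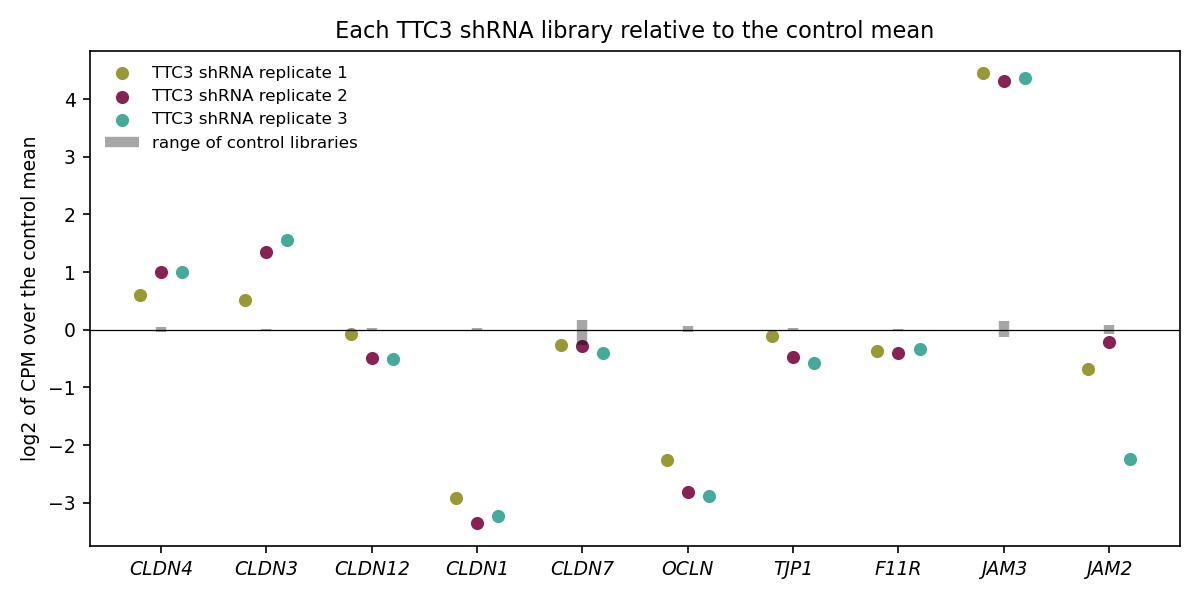
Level of each gene in TTC3 shRNA replicates 1, 2 and 3 relative to the mean of the controls, as log2 of the CPM ratio; the grey bar is the range of the 3 control libraries. JAM3 (4.45, 4.31 and 4.36), F11R (-0.37, -0.41 and -0.33) and CLDN7 differ least among the 3 replicates, CLDN1, CLDN3 (0.51, 1.34 and 1.56), CLDN4, CLDN12, OCLN and TJP1 are nearest to the controls in replicate 1, and JAM2 is widely spread.

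CLDN12 and CLDN7 did not pass. CLDN12, a claudin without the usual C-terminal PDZ-binding end and linked to calcium transport, was at 25.6, 26.5 and 25.3 CPM in control replicates and at 24.6, 18.3 and 18.1 CPM in TTC3 shRNA replicates. Its log2 fold change was -0.34 ± 0.13 (adjusted p = 0.0757), and it passed without TTC3 shRNA replicate 1 (-0.49, adjusted p = 5.35e-05). CLDN7, abundant in many glandular epithelia, was close to absent here, with 33, 45 and 39 counts in control replicates and 31, 28 and 27 in TTC3 shRNA replicates (-0.32 ± 0.26 on the log2 scale, adjusted p = 0.392). CLDN12 shares exonic bases on the same strand with AC006153.1 (371 of 6741), GTPBP10 (347), the pseudogene AC002456.2 (276) and CDK14 (201). CLDN7 shares 269 of 2492 on the same strand with AC003688.1 and 38 on the opposite strand with ELP5, so reads there may be split.

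Promoter sequences are shown for the 4 claudin and occludin genes that passed the test, to set those that fell beside those that rose. The RefSeq windows (GRCh38.p14) span the 250 bases before a transcript start and were found for 7 of the 10 genes: CLDN1, CLDN3, CLDN4, CLDN7, CLDN12, OCLN and TJP1, with 12 windows in all. Capitals mark matches on either strand to the GC box GGGCGG (reverse CCGCCC), the SNAI and ZEB E-box CAGGTG (reverse CACCTG) or the AP-1 site TGANTCA, which reads the same on both strands. Such matches describe the letters in these windows and are not measured binding sites. CLDN1 and CLDN3 are printed over the 221 and 250 bases that lie outside exons of the gene in GENCODE 29. The first OCLN window and the CLDN4 window lie within such exons and are shown only as single sites of 30 bases, and the second OCLN window is not shown.
CLDN1 (fell), chr3:190322476-190322696, minus strand: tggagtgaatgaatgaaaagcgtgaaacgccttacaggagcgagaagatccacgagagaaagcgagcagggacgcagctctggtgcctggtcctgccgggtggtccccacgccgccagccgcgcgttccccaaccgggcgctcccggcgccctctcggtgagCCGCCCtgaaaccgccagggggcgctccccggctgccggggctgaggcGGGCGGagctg
OCLN E-box (fell), chr5:69492502-69492531, plus strand: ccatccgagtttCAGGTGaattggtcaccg
CLDN3 (rose), chr7:73770271-73770520, minus strand: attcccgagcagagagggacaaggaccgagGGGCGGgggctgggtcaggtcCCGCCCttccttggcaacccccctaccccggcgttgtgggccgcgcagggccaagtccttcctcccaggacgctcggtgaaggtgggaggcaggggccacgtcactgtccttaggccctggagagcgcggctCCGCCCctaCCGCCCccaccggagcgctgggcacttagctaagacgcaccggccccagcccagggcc
CLDN4 first AP-1 site (rose), chr7:73830746-73830775, plus strand: ctgggctgTGATTCAgtgtctgtctcccgg
CLDN4 second AP-1 site (rose), chr7:73830824-73830853, plus strand: agactggatagTGACTCAgggacccggggc

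Over the whole windows, GC boxes numbered 2 in CLDN1, 4 in CLDN3 and 1 each in CLDN4 and the first of the 2 OCLN windows, and 42.6% of all 35116 windows held at least 1. Each OCLN window had 1 E-box, the first window's starting 33 bases before the transcript start, and the CLDN1, CLDN3 and CLDN4 windows had none, where 17.5% of all windows had 1 or more. CLDN4 alone of the 4 held AP-1 matches, starting 242 and 161 bases before the transcript start, where 6.57% of all windows held such a match. CLDN4 also had fewest CpG pairs, 4 in 250 bases, against 28 in CLDN1, 24 in the first OCLN window and 19 in CLDN3. The GRHL site AACCNGTT (reverse AACNGGTT), held by 1.49% of all windows, was in none of the 12 windows. CLDN7, which did not pass, had 4 E-boxes in 1 of its 2 windows.

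Levels can be compared between genes only per length of transcript, here as CPM per kilobase. In control cells CLDN4 was highest at 96.6 ± 5.42 CPM per kilobase (SD, n = 3), followed by TJP1 at 41.2 ± 1.17, CLDN1 at 21.1 ± 0.275, CLDN3 at 17.1 ± 0.173, F11R at 10.7 ± 0.0748, CLDN12 at 8.31 ± 0.578 and OCLN at 2.77 ± 0.337. CLDN7, JAM3 and JAM2 were below 0.2, and CLDN7 and JAM3 overlapped each other in that order. All other neighbours in the control order were separated in every library. In TTC3 shRNA cells CLDN4 led at 182 ± 26.3 CPM per kilobase, CLDN3 at 39.3 ± 13.5 overlapped TJP1 at 31.4 ± 5.91, and CLDN1, which had been the third, was the seventh at 2.37 ± 0.383. JAM3 moved from the ninth place to the sixth, at 2.56 ± 0.122, where it overlapped CLDN1.

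The mix of these 5 claudins therefore differed between the libraries of the groups. Other claudins were not counted in it, such as CLDN11 (14.9 CPM in control and 21.5 CPM in TTC3 shRNA libraries), CLDN15 (8.89 and 8.75 CPM) and CLDN14 (4.50 and 3.27 CPM). CLDN1 made up 14.8% ± 0.554 of the summed length-scaled level of the 5 claudins in control libraries and 1.07% ± 0.373 in TTC3 shRNA libraries (SD, n = 3). CLDN4 made up 67.4% ± 1.28 and 79.2% ± 2.02, and CLDN3 11.9% ± 0.413 and 16.7% ± 3.38. CLDN12 took 5.81% ± 0.482 and 3.02% ± 1.08. The groups did not overlap for any of these 4 shares, and each reached p = 0.1 in a two-sided exact permutation test, the smallest p that 3 libraries against 3 allow (0.114 adjusted over the 8 claudin and JAM shares). Without division by length the CLDN1 share fell by 21.7 percentage points, against 13.7 with it, and the CLDN4 share rose by 20.6 against 11.8. The ratio of CLDN4 to CLDN1 was 4.37, 4.49 and 4.87 in control replicates and 54.2, 95.7 and 87.9 in TTC3 shRNA replicates. A ratio or share within a library does not depend on how libraries are scaled, but it can move with the length trend given above. The CLDN3 share was 13.0%, 17.4% and 19.7% in TTC3 shRNA replicates 1, 2 and 3. Shares and ratios were not recomputed with that trend removed. The summed level of the 5 claudins was 143 ± 5.43 CPM per kilobase in control and 231 ± 38.0 in TTC3 shRNA libraries (exact permutation p = 0.1).

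**Figure D3:**
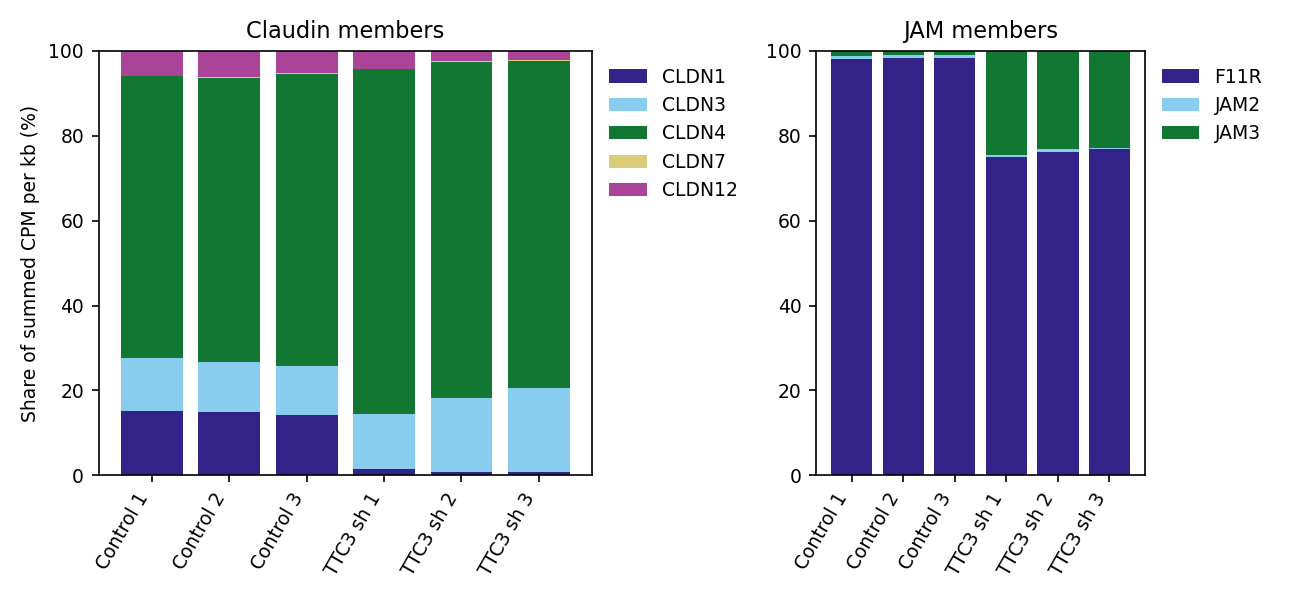
Share of each gene in the summed length-scaled level (CPM per kilobase, in percent) of the 5 claudins (left) and the 3 JAMs (right), 1 bar for each of the 6 libraries. The CLDN1 part shrinks from 14.1% to 15.2% of the bar in control libraries to between 0.828% and 1.497% in TTC3 shRNA libraries, and the JAM3 part grows from at most 1.28% to at least 22.9%.

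Among the JAMs, JAM3 had one of the largest rises of any gene, and F11R fell slightly. JAM3 is an adhesion molecule of endothelial cells, nerve sheaths, sperm cells and smooth muscle that binds JAM2 on the facing cell. It had 86, 75 and 66 counts in control replicates and 1584, 1309 and 1419 in TTC3 shRNA replicates, or 0.537, 0.464 and 0.442 CPM against 10.5, 9.55 and 9.88 CPM. All TTC3 shRNA libraries were high and close to each other. JAM3 rose by 4.37 ± 0.13 on the log2 scale, 20.7-fold (adjusted p = 6.79e-06), the 14th highest log2 fold change of the 24325 tested genes. Its transcript ENST00000299106.9 held 95.6% of the gene's counts in control and 98.2% in TTC3 shRNA libraries and rose by 4.39 ± 0.19 (adjusted p = 0.00183).

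On the opposite strand, NCAPD3, a condensin subunit gene, shares 465 of the 5451 exonic bases of JAM3, and whether counting used the strand is not stated in the notes or labels. NCAPD3 was at 169 and 207 CPM, a log2 fold change of 0.30 ± 0.08 (adjusted p = 0.0317). JAM3 is also an endothelial gene. Of 10 endothelial markers 6 were tested, 3 higher and 1 lower, beside 15.7% and 17.8% of all tested genes. Whether those markers bear on the rise of JAM3 was not tested. TIE1 rose by 1.39 ± 0.25, ROBO4 by 0.88 ± 0.12 (12.9 to 23.6 CPM) and KDR by 0.41 ± 0.07 on the log2 scale, and PECAM1 fell by 0.73 ± 0.16. VWF and TEK did not pass, CDH5 had 0 counts in all 6 libraries, and ERG and EMCN had 0 counts in the TTC3 shRNA libraries.

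F11R, the JAM of epithelial cells and platelets, was the main JAM in control cells. It was at 51.2, 51.8 and 51.6 CPM in control replicates and at 39.8, 38.9 and 41.1 CPM in TTC3 shRNA replicates. Both groups were tight and did not overlap. The unnamed gene AL591806.3 shares 1853 of the 5066 exonic bases of F11R on the same strand, so the division of reads between them is uncertain. F11R fell by 0.37 ± 0.06 on the log2 scale, to 77.4% of control (adjusted p = 0.00335), and it did not pass against a fold of 1.5 (glmTreat adjusted p = 1.00). JAM2, a JAM of endothelial and lymphatic vessels, had 50, 53 and 52 counts in control replicates and 31, 39 and 10 in TTC3 shRNA replicates, a difference of -0.82 ± 0.46 on the log2 scale that missed the threshold (adjusted p = 0.213). Replicate 3 was lowest, and the spread of the TTC3 shRNA libraries was wide.

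F11R held 98.2% ± 0.0927 of the summed length-scaled JAM level in control libraries and 76.0% ± 0.897 in TTC3 shRNA libraries. JAM3 held 1.14% ± 0.131 and 23.5% ± 0.849 (exact permutation p = 0.1 for each, the smallest possible). The sum of the 3 JAMs was 10.8, 10.96 and 10.9 CPM per kilobase in control replicates and 10.97, 10.6 and 11.1 in TTC3 shRNA replicates (exact permutation p = 1.00). Group means of that sum were 10.89 ± 0.0679 and 10.87 ± 0.260, so the groups overlapped while the makeup of the sum differed.

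TJP1, the scaffold that binds claudins, occludin and JAMs through separate domains, did not pass. It was at 283, 274 and 273 CPM in control replicates and at 257, 199 and 186 CPM in TTC3 shRNA replicates, with replicate 1 again nearest to the controls. Its log2 fold change was -0.37 ± 0.12 (adjusted p = 0.0521), and it passed in 7 of 17 alternative analyses, with an adjusted p of 3.16e-05 without TTC3 shRNA replicate 1. The transcript ENST00000614355.5 held 82.1% of TJP1 counts in control and 81.3% in TTC3 shRNA libraries (log2 fold change -0.41 ± 0.16, adjusted p = 0.225). Of 29 transcripts of the 10 genes, 22 were tested and 3 passed, those of CLDN1, CLDN4 and JAM3 given above, beside 3.99% of all tested transcripts.

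Genes next to each member were read by position, taking the nearest 2 tested protein-coding genes on each side of the 6 that passed. CLDN3 (hg38 chromosome 7, 73768997 to 73770270) and CLDN4 (73799542 to 73832693) lie 29272 bases apart. Their neighbours ABHD11, a mitochondrial hydrolase gene, METTL27 and TMEM270 rose too. ABHD11 went from 18.02 to 34.4 CPM (log2 fold change 0.93 ± 0.11, adjusted p = 0.00134), METTL27 from 0.959 to 1.97 CPM (1.04 ± 0.20, adjusted p = 0.00862) and TMEM270 from 0.192 to 0.646 CPM (1.74 ± 0.43, adjusted p = 0.0195). The next gene outward, the syntaxin STX1A, did not pass (0.13 ± 0.11, adjusted p = 0.384). The 5 genes from ABHD11 to TMEM270, adjacent among tested protein-coding genes, thus all rose, with CLDN3 and CLDN4 the called members that set the search. All were least raised in TTC3 shRNA replicate 1. Log2 ratios to the control mean in replicates 1, 2 and 3 were 0.68, 1.00 and 1.08 for ABHD11 and 0.70, 1.13 and 1.23 for METTL27. TMEM270, at 1.07, 1.32 and 2.45, had only 29, 24 and 37 counts in control replicates. Values of the neighbours with the length trend removed are not given here.

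OCLN (chromosome 5, 69492292 to 69558104) lies 47962 bases from MARVELD2, which encodes tricellulin and fell by 0.83 ± 0.10 on the log2 scale (adjusted p = 0.00129). RAD17 fell by 0.25 ± 0.08 (adjusted p = 0.0463), GTF2H2C did not pass (0.09 ± 0.15) and SERF1B, 467143 bases away, rose by 0.71 ± 0.12 (adjusted p = 0.00452). GTF2H2C and SERF1B have near-identical copies nearby, so their values are uncertain. Beside CLDN1 (chromosome 3, 190305701 to 190322475), CLDN16 was at 0.199 and 0.0798 CPM and did not pass, nor did P3H2 or IL1RAP, while the basal transcription factor TP63, 408422 bases away, fell from 319 counts over the control libraries to 6 over the TTC3 shRNA libraries (adjusted p = 0.000489).

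Around JAM3 (chromosome 11, 134068925 to 134152001), VPS26B of the retromer rose by 0.69 ± 0.09 (adjusted p = 0.00164), IGSF9B did not pass and SNX19, 3152416 bases away, fell by 0.47 ± 0.07 (adjusted p = 0.00384). No neighbour of JAM3 thus had a change near its 20.7-fold. By F11R (chromosome 1, 160995211 to 161021348), USF1 did not pass (-0.02 ± 0.06), nor did ARHGAP30, and SLAMF7 and NHLH1, 240390 and 622363 bases away, fell from 0.183 and 0.609 CPM (adjusted p = 0.0157 and 0.0195). Over the 22 different neighbours, 8 were higher and 6 lower, beside 15.7% and 17.8% of all tested genes (33.6% in either direction), and these include CLDN3 and CLDN4 as neighbours of each other.

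**Figure D4:**
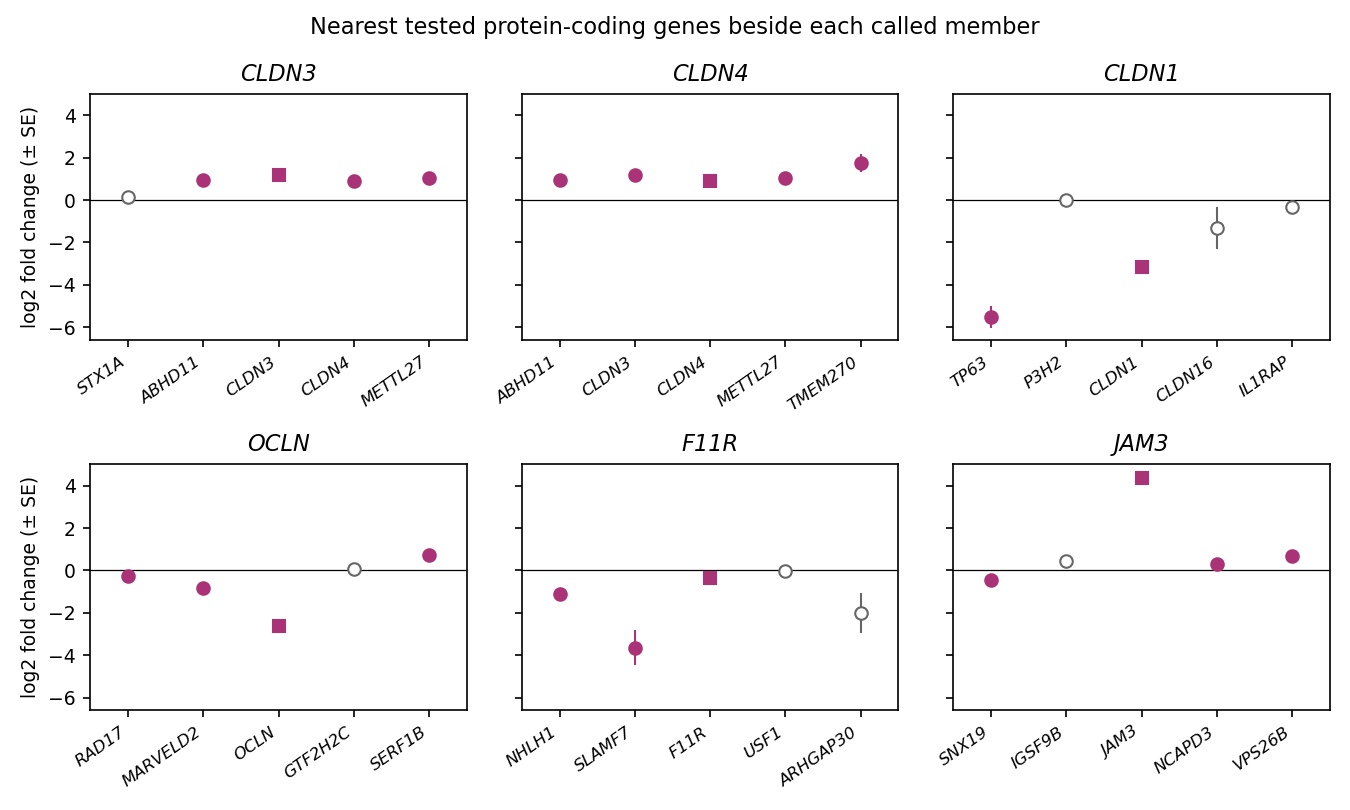
log2 fold change (± SE) of each called gene (square) and of the nearest 2 tested protein-coding genes on either side (circles), in order along the chromosome; filled symbols passed at an adjusted p of 0.05. In the CLDN3 and CLDN4 panels the 5 genes from ABHD11 to TMEM270 are all higher, while the CLDN1 and JAM3 squares stand apart from their immediate neighbours.

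Other genes of the junction came from 6 lists of 96 genes, of which 75 were tested. In all 16 rose, 20 fell and 39 did not pass, 48.0% called beside 33.6% of all tested genes, with a median log2 fold change of -0.06. By list, 55.6% of tested other claudins, 54.5% of membrane proteins and 39.1% of plaque proteins were called. The called part was 42.9% of polarity proteins, 33.3% of nectins and 66.7% of JAM partners. Of the other claudins, 9 of 21 were tested, 2 rose and 3 fell. CLDN11, the claudin of myelin and of the testis barrier, rose from 14.9 to 21.5 CPM (0.53 ± 0.13, adjusted p = 0.0224), and CLDN23 fell from 0.920 to 0.329 CPM (-1.48 ± 0.17, adjusted p = 0.00102). CLDN14 fell by 0.46 ± 0.14 on the log2 scale (adjusted p = 0.0452), and the distantly related CLDND2 rose by 1.31 ± 0.28 (adjusted p = 0.0125). The endothelial CLDN5 had 23 and 15 counts over the 3 libraries of each group and was not tested, and CLDN8, CLDN10, CLDN18, CLDN20 and CLDN25 had 0 counts in all 6.

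Membrane proteins of the contacts had the lowest median of the 6 lists, -1.28, with 5 of 11 tested members lower and 1 higher. That median is the value of CRB3, which had 60 counts over the control and 22 over the TTC3 shRNA libraries and did not pass (adjusted p = 0.346). Of the 17 listed genes, 7 reached a mean of 1 CPM in either group. Among these, LSR, CXADR and MARVELD2 fell, CLMP rose, and ESAM, VSIG1 and TMEM47 did not pass. Corners where 3 cells meet are sealed by tricellulin and by the angulins, which draw tricellulin there. LSR, the main angulin, was at 18.5, 19.6 and 19.8 CPM in control replicates and at 1.27, 1.75 and 1.84 CPM in TTC3 shRNA replicates, all far below the controls, and fell by 3.57 ± 0.16 on the log2 scale (adjusted p = 1.71e-05). Another angulin, ILDR1, went from 136 to 11 counts over 3 libraries (adjusted p = 0.0135), and MARVELD2 from 11.7 to 6.60 CPM. The angulin ILDR2 had 11 counts over the control and 6 over the TTC3 shRNA libraries and was not tested. ILDR1 had enough counts to be tested only through the control libraries. CXADR, the coxsackievirus and adenovirus receptor, fell from 16.5 to 4.82 CPM (-1.78 ± 0.12, adjusted p = 9.70e-05). Its relative CLMP was higher in every TTC3 shRNA library, 151, 147 and 149 CPM against 109, 110 and 108 CPM, a rise of 0.45 ± 0.05 (adjusted p = 0.00115).

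Plaque proteins, which sit under the membrane, had 4 of 23 members higher and 5 lower, with a median of -0.04. The angiomotins went both ways: AMOT rose from 7.67 to 22.6 CPM (1.56 ± 0.11, adjusted p = 0.000109) and AMOTL2 fell from 106 to 57.4 CPM (-0.89 ± 0.08, adjusted p = 0.000463). The vesicle GTPase RAB13 rose from 28.4 to 49.97 CPM (adjusted p = 0.00169), and the actin linker CGNL1 fell from 3.10 to 1.58 CPM (adjusted p = 0.00222).

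Polarity proteins had 4 of 14 members higher and 2 lower, with a median of 0.10. The kinase MARK2 rose by 0.45 ± 0.08 (adjusted p = 0.00534) and the JAM-linked atypical kinase PRKCI by 0.31 ± 0.08 (adjusted p = 0.0252), while PARD6B fell by 0.46 ± 0.10 (adjusted p = 0.0112) and PARD3B by 0.39 ± 0.09 (adjusted p = 0.0195). Of 6 tested nectins and relatives, NECTIN1 rose from 50.3 to 104.4 CPM (1.05 ± 0.08, adjusted p = 0.000191). NECTIN4 fell from 56 counts over the control libraries to 0 over the TTC3 shRNA libraries (adjusted p = 0.0105), at least 17.1-fold lower against a floor of 3 counts over the group. It held 30, 16 and 10 counts in control replicates and had enough counts to be tested only through them. The other 4 did not pass, and the nectin median was -0.19, also with NECTIN4 placed at its bound.

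Proteins reported to bind JAMs had 4 of 12 tested members higher and 4 lower, with a median of 0.02. The leukocyte integrin chain ITGB2 rose from 2.31 to 9.89 CPM (2.09 ± 0.16, adjusted p = 0.000176), while ITGAM, which pairs with it and binds JAM3, fell from 0.360 to 0.119 CPM (-1.58 ± 0.33, adjusted p = 0.0108). ITGA4 rose from 0.853 to 2.54 CPM (adjusted p = 0.00128), and ITGAV fell from 63.2 to 49.3 CPM (adjusted p = 0.0123). ITGB1, the most abundant of the list, did not pass (0.08 ± 0.09).

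**Figure D5:**
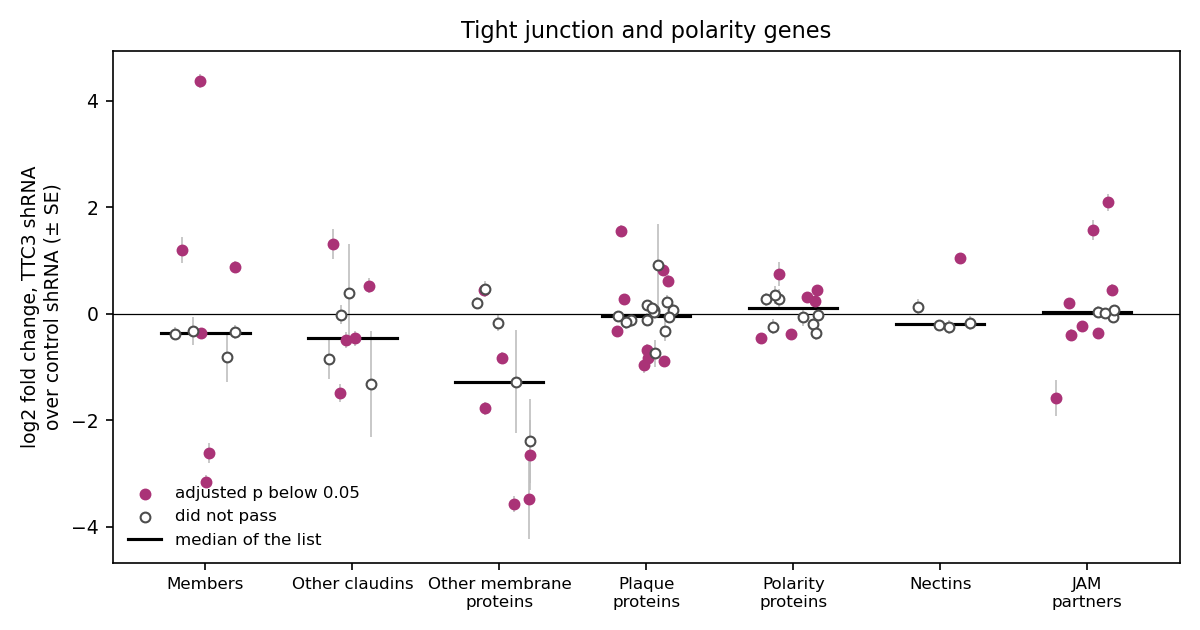
log2 fold change (± SE) of every tested gene with counts in both groups, by list; filled points passed at an adjusted p of 0.05 and bars are list medians. NECTIN4, without counts in TTC3 shRNA libraries, is not drawn. The other membrane proteins have the lowest median, -1.28, which is the value of CRB3, a low-count gene that did not pass.

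Genes whose profile over the 6 libraries was most like that of CLDN1 or JAM3 were found by the root mean square difference of centred log2 CPM among genes with a mean of at least 5 CPM. Nearest to CLDN1 were the interferon-stimulated IFI44L at a difference of 0.03, the cytokine IL1B at 0.06 and the surface glycoprotein CD24 at 0.07. IFI44L, which had the smallest difference, went from 58.4 to 6.52 CPM, IL1B from 39.5 to 4.59 CPM and CD24 from 85.1 to 8.96 CPM. JAM3 was nearest to the calponin relative TAGLN3 at 0.17, NUDT11 at 0.18 and the phosphodiesterase PDE4A at 0.54. With 2 groups this likeness mostly reflects a fold change of the same size.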

How the data were processed

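The authors' deposited tables hold estimated counts, in 1 table for genes and 1 for transcripts, as whole unscaled numbers for every library. Per the labels' protocols, total RNA was depleted of ribosomal RNA and made into strand-specific libraries. Trim Galore, STAR and StringTie were run with hg38, per the submitters' processing notes. Versions, annotation and strand setting: not given in the sources used here.

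Libraries were grouped by title and held 143246356 to 155526861 counts, so spread between libraries limits precision except for rare genes, where counting error adds. Tests used edgeR 4.0.16 under R 4.3.3 (filterByExpr defaults, TMM factors 0.924 to 1.05, glmQLFit and glmQLFTest without a block, Benjamini-Hochberg adjusted p below 0.05 over 24325 genes or 53805 transcripts). The SE is the log2 fold change divided by the square root of F. Some called genes, among them NECTIN4, ILDR1, ESRP1, TP63 and SLAMF7, met the count filter only through the control libraries, where they were higher. Positions, exons and lengths came from GENCODE 29 (GRCh38), matched without version for 58207 of 62700 genes and 98286 of 117688 transcripts. Length-scaled levels divide CPM by the transcript length weighted by each library's transcript counts.

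The genes and lists were chosen with earlier results of these data known. Named were all 10 genes, up to 4 called genes per list by adjusted p (2 by level where none passed), 2 neighbours a side, the 3 nearest profiles for CLDN1 and JAM3, and, chosen after their values were seen, CLDN5, CLDN8, CLDN10, CLDN18, CLDN20, CLDN25, ILDR1, ITGB1, OCLNP1 and the marker genes. The procedure was run on simulated counts with 200 changed genes or transcripts. All were given the same level of spread, without the length trend or the replicate differences seen here, so that run does not bear on these calls. Squared differences between control replicates were 3.85 to 4.95 times those of sampling noise (median over genes). Between TTC3 shRNA replicates they were 27.8 and 35.5 times for the pairs with replicate 1 and 7.42 times for replicates 2 and 3. Each library was kept as a replicate. Alternatives were other scalings (DESeq2 1.42.0 size factors, library totals, without mitochondrial and the 20 highest genes), DESeq2, limma-voom (limma 3.58.1), 2 other count filters, glmTreat at a fold of 1.5, a threshold of 0.01 on adjusted p, a replicate block, the length trend removed (lowess, span 0.5) and each library left out.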

Additional observations from a re-analysis of the deposited data

How the results depend on the processing

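CLDN1, OCLN and JAM3 kept their direction and passed in all 17 alternatives, with log2 fold changes of -3.28 to -3.06, -2.824 to -2.496 and 4.25 to 4.46. The 6 genes called numbered 6 to 8 of the 10 in all alternatives except the test against a fold of 1.5, with 3, and no direction of any of the 10 reversed. Leaving out 1 library gave 6 to 8. The 8165 genes called over the whole table became 2033 against a fold of 1.5, 4082 at an adjusted p of 0.01 and 4546 to 13739 when 1 library was left out (13739 without TTC3 shRNA replicate 1). Scaling by library totals gave 2519 higher and 5354 lower genes in place of 3827 and 4338, and moved the median of all genes from -0.02 to -0.15. Removing the length trend gave 3026 higher and 5360 lower with a median of -0.15. The 36 called genes of the 6 other lists became 11 against a fold of 1.5, 16 at an adjusted p of 0.01 and 18 to 52 when 1 library was left out (52 without TTC3 shRNA replicate 1, and 19, 18 and 19 without control replicates 1, 2 and 3). The 3 called transcripts became 0 in edgeR with the replicate block (7 of the 22 tested had an unadjusted p below 0.05, as many as without it, and limma-voom without a block called 3) and 2 to 6 when 1 library was left out (6 without TTC3 shRNA replicate 1, 2 without any 1 of the controls or without TTC3 shRNA replicate 2). Deviations of same-numbered libraries correlated at 0.05, 0.04 and -0.01, and those of differently numbered ones at -0.05 to 0.02. With so few libraries these values cannot settle whether replicate numbers pair the libraries. With the block 7 of the 10 genes passed, TJP1 being added (adjusted p = 0.0421), with 6929 genes over the table and 30 in the other lists. Claudin and JAM shares kept their sign without division by length, but the size depended on it: the CLDN1 share fell by 21.7 percentage points in place of 13.7 and the CLDN4 share rose by 20.6 in place of 11.8. CLDN7 and JAM2 had at most 53 counts per library, so counting error adds to their spread.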
